A study of Mus musculus with 4 samples.

Results

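The 10 genes described here encode subunits of the AMP-activated protein kinase (AMPK), the kinases that switch it on, and a pair of adenylate kinases. They were taken by symbol from the feature lists of all 4 libraries: Prkaa1 and Prkaa2 (catalytic α subunits), Prkab1 and Prkab2 (β subunits), Prkag1 and Prkag2 (γ subunits), Stk11 and Camkk2 (upstream kinases), and Ak4 and Ak5 (adenylate kinases). All 10 were found among the 21933 genes of the series. The study profiled single nuclei of the cerebral cortex of mice that lack a working creatine transporter (CrT), the product of the X-linked gene Slc6a8, and asked which cell types respond to the loss of brain creatine. Each of the 4 libraries came from the right cortex of 1 adult male. The 2 control libraries came from wild-type littermates (CrT+/y) and the 2 CrT-KO libraries from males hemizygous for a Slc6a8 allele deleted for a run of its exons (CrT-/y) in the germline, so that every cell type lacks the transporter throughout life, and no animal of either group received a treatment.

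AMPK is a sensor of cellular energy made of 1 catalytic α, 1 scaffolding β and 1 nucleotide-binding γ subunit. When ATP falls, AMP binds the γ subunit and favours phosphorylation of a threonine in the activation loop of the α subunit. The main kinase for that site is LKB1, the product of Stk11, and the calcium-dependent kinase CaMKK2, the product of Camkk2, is abundant in neurons. Adenylate kinases convert 2 ADP to ATP and AMP, so that a small loss of ATP gives a larger relative rise of AMP, and creatine kinase with phosphocreatine buffers the same ATP pool. AK4 sits in the mitochondrial matrix and AK5 is a cytosolic adenylate kinase of the brain. AMPK activity is set mainly by phosphorylation and nucleotide binding, which counts of nuclear RNA do not measure.

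The paralogs are similar where the activation loop is encoded, and this stretch shows both the site of AMPK activation and how far Prkaa1 and Prkaa2 differ there. The coding strand of the longest annotated coding transcript of each gene (GENCODE vM21, GRCm38) is printed 5′ to 3′ with the threonine codon in capitals. The Prkaa1 stretch lies on the plus strand of chromosome 15 (chr15:5169940-5169996) and the Prkaa2 stretch on the minus strand of chromosome 4 (chr4:105049354-105049410), each within 1 coding exon.
Prkaa1: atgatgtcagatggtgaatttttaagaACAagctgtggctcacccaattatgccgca
Prkaa2: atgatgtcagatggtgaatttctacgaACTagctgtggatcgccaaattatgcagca
The stretches differed at 7 of 57 bases, and the codon was number 183 of Prkaa1 and number 172 of Prkaa2. The longest identical run between any annotated transcripts of the pair was 35 bases. It was 23 bases between Prkab1 and Prkab2, 15 bases between Prkag1 and Prkag2 and 13 bases between Ak4 and Ak5, all shorter than a sequencing read. Introns and near-identical runs were not compared, so the assignment of reads between paralogs was not tested.

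The genes are spread over the genome and differ widely in length, which can affect how many reads a nuclear transcript gives when introns are counted. In GRCm38, Prkaa1 spans chr15:5143861-5181899, Prkaa2 chr4:105029874-105109890, Prkab1 chr5:116013586-116024508, Prkab2 chr3:97658193-97673812 and Prkag1 chr15:98812797-98831521. Prkag2 spans chr5:24862744-25100642, Stk11 chr10:80115803-80130682, Camkk2 chr5:122731170-122779409, Ak4 chr4:101419277-101466995 and Ak5 chr3:152462815-152668360. Prkag2 and Ak5 are the longest, with gene bodies of 237.9 and 205.5 kb, and Prkab1 and Stk11 the shortest, with 10.9 and 14.9 kb. A counted gene on the opposite strand overlapped Prkab2 over 782 bases (Gm17651), Stk11 over 232 bases (Cbarp) and Ak5 over 12 bases (Zzz3). Whether the counting used the strand is not given in the sources used here, so reads in those overlaps are of uncertain origin.

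The libraries held 51507483 to 65240843 unique molecular identifiers (UMIs, each a captured RNA molecule) in 8282 to 9295 nuclei, with medians of 5548 to 6700.5 UMIs per nucleus. At most 19 nuclear barcodes were shared between any library and the others. After 1213 doublets were removed, 34481 of 35694 nuclei were grouped by their markers into excitatory neurons (16712), inhibitory neurons (6803), oligodendrocytes (4965), microglia (2232), oligodendrocyte precursor cells (OPCs, 661), astrocytes (493) and endothelial cells and pericytes (191). Excitatory neurons were divided by layer and projection markers into intratelencephalic (IT), extratelencephalic (ET), near-projecting (NP), corticothalamic (CT) and L6b-like nuclei, and inhibitory neurons into LAMP5-like, PV-like, SST-like and VIP-like nuclei. Of the inhibitory class, 2540 nuclei carried markers of medium spiny neurons of the striatum (MSN-like), a cell type that is not part of the cortex, in all 4 libraries (516 to 722 nuclei). A further 2479 excitatory and 769 inhibitory nuclei had no such name and count in the class but in none of the 18 populations. Unnamed clusters took 5.82% to 8.23% of the nuclei of a library. Names were rebuilt here from markers, since no annotation of nuclei was used, and the 10 genes took no part in the clustering. Glial nuclei were shallow, with medians of 881 to 1032 UMIs in microglia and 1209 to 1406 in oligodendrocytes, against 7301 to 8818.5 in excitatory neurons.

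Levels are given as CPM, the UMIs of a gene per 1000000 UMIs of all genes in a population, as the mean ± SD of 4 libraries of both genotypes (n = 4). They describe the populations and carry no test, and no value is corrected for free RNA from other cells in a droplet. Neighbours in an order are said to overlap where the ranges of their 4 libraries do. Over all nuclei, the levels per kilobase of gene body were 2.17 CPM per kb for Camkk2, 1.89 for Prkag1, 1.75 for Prkab2, 1.49 for Ak5, 1.04 for Prkaa2 and 0.966 for Prkag2. The other 4 genes were lower on the same scale, with 0.440 CPM per kb for Prkaa1, 0.387 for Stk11, 0.248 for Ak4 and 0.234 for Prkab1. Whether UMIs of 3′ libraries scale with the length of the gene body was not tested, so orders and shares per kb depend on that assumption.

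**Figure D1:**
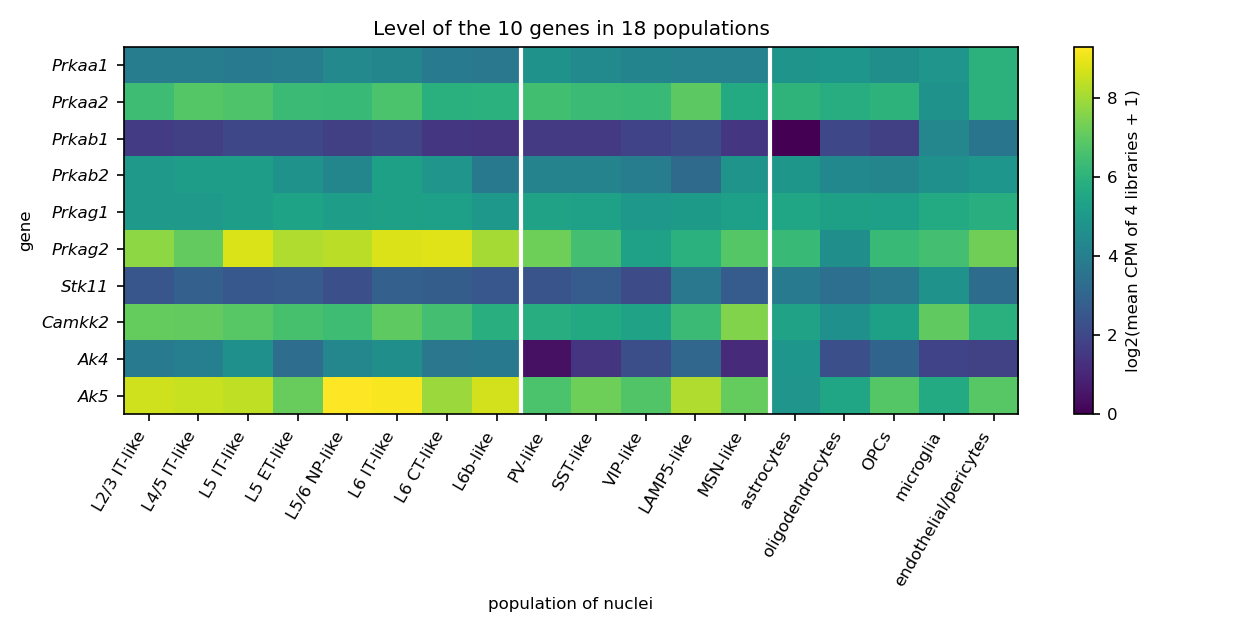
Mean level of each gene (rows) in 18 populations of nuclei (columns: 8 excitatory, 5 inhibitory and 5 glial or vascular, split by white lines), as log2(mean CPM of 4 libraries + 1). Ak5 and Prkag2 are brightest in excitatory columns, Prkag1 has nearly the same colour in every column, and Prkab1 and Stk11 are brightest in microglia among these columns.

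The catalytic subunit Prkaa2 had its highest means in LAMP5-like, L4/5 IT-like, L5 IT-like and L6 IT-like nuclei and its lowest in microglia. In excitatory nuclei it measured 114 ± 3.24 CPM in L4/5 IT-like, 107 ± 3.44 in L5 IT-like, 101 ± 6.55 in L6 IT-like, 84.3 ± 4.66 in L2/3 IT-like, 80.4 ± 1.13 in L5 ET-like, 78.6 ± 14.6 in L5/6 NP-like, 60.3 ± 4.94 in L6b-like and 59.1 ± 4.61 in L6 CT-like. In inhibitory nuclei it measured 122 ± 9.53 CPM in LAMP5-like, 88.9 ± 3.31 in PV-like, 78.9 ± 7.24 in SST-like, 75.4 ± 12.2 in VIP-like and 50.7 ± 2.83 in MSN-like. The libraries of LAMP5-like interneurons overlapped those of L4/5 IT-like nuclei, and L6 CT-like and MSN-like nuclei lay at the low end of the neurons. Outside neurons Prkaa2 measured 64.9 ± 31.1 CPM in astrocytes, 63.3 ± 15.2 in OPCs, 61.9 ± 27.5 in endothelial cells and pericytes, 54.9 ± 3.42 in oligodendrocytes and 26.1 ± 9.24 in microglia. The fall from MSN-like nuclei to microglia was the last step in the order and did not overlap.

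Prkaa1, the other catalytic subunit, had its 4 highest means outside neurons. There it measured 61.9 ± 15.3 CPM in endothelial cells and pericytes, 28.6 ± 4.27 in oligodendrocytes, 27.5 ± 3.75 in microglia, 27 ± 8.12 in astrocytes and 23.6 ± 10.2 in OPCs. The endothelial value rested on 16 UMIs in all. In inhibitory nuclei it was 25.8 ± 4.53 CPM in PV-like, 20.5 ± 7.11 in SST-like, 17.2 ± 3.22 in VIP-like, 16.5 ± 0.584 in MSN-like and 16.4 ± 6.55 in LAMP5-like. In excitatory nuclei it was 19.7 ± 4.05 CPM in L5/6 NP-like, 18.1 ± 2.37 in L6 IT-like, 14.4 ± 1.08 in L4/5 IT-like, 14.2 ± 0.803 in L2/3 IT-like, 13.9 ± 3.48 in L5 ET-like, 13.7 ± 3.02 in L5 IT-like, 13.1 ± 1.34 in L6 CT-like and 12.2 ± 4.12 in L6b-like. All steps of this order but the first overlapped, so that only the endothelial value stood clear of its neighbour.

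Prkaa2 made up 74.8% ± 1.12 (SD, n = 4) of the α subunit UMIs per kb in excitatory neurons and 63.7% ± 2.42 in inhibitory neurons, ranges that did not overlap. In oligodendrocytes its share was 47.9% ± 3.78, and in microglia 30.9% ± 10.2. Not divided by length, Prkaa2 had 54.9 CPM against 28.6 for Prkaa1 in oligodendrocytes, and 26.1 against 27.5 in microglia. Across the 18 populations the highest shares were in L4/5 IT-like (79.1% ± 1.32), L5 IT-like (78.9% ± 3.96) and LAMP5-like nuclei (78.5% ± 7.32). Among the neurons the lowest were in MSN-like (59.4% ± 1.12) and PV-like nuclei (62.2% ± 4.21).

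**Figure D2:**
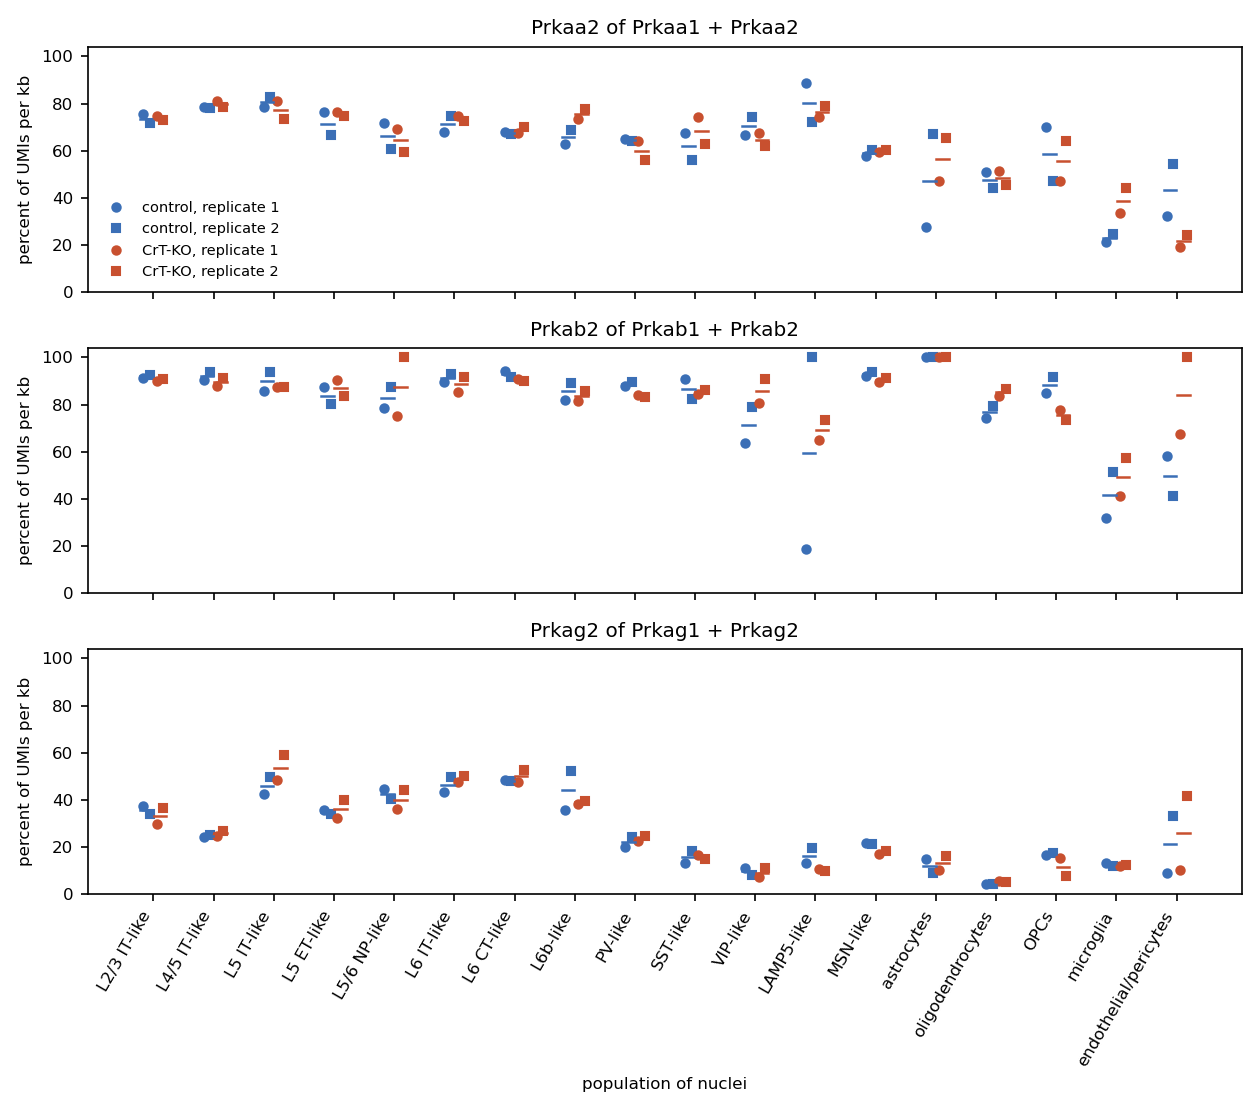
Share of the second isoform in the UMIs per kb of gene body (y axis, percent) for the α, β and γ subunits (panels from top to bottom) in 18 populations, with 1 point per library and a bar at the mean of each genotype. The γ2 share is highest in excitatory populations and under 6% in all 4 oligodendrocyte points, and the α2 share is lowest in microglia and in endothelial cells and pericytes. The mean β2 share is lowest in microglia, while the LAMP5-like points spread from 18.9% to 100%.

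The β subunits hold the complex together and carry the region that binds glycogen. Prkab2 had its 4 highest means in the IT neurons. In excitatory nuclei it measured 37.9 ± 4.97 CPM in L6 IT-like, 35.0 ± 8.68 in L5 IT-like, 34.9 ± 3.95 in L4/5 IT-like, 31.5 ± 3.77 in L2/3 IT-like, 28.0 ± 0.439 in L6 CT-like, 25.5 ± 3.33 in L5 ET-like, 18.5 ± 2.14 in L5/6 NP-like and 12.6 ± 0.483 in L6b-like. In inhibitory nuclei it measured 26.8 ± 3.35 CPM in MSN-like, 17.0 ± 2.97 in PV-like, 16.8 ± 1.84 in SST-like, 14.2 ± 2.87 in VIP-like and 8.39 ± 4.49 in LAMP5-like, so that MSN-like nuclei lay above the 4 interneuron types on this scale, without overlap. In the remaining populations it measured 29.3 ± 17.7 CPM in astrocytes, 28.5 ± 15.4 in endothelial cells and pericytes, 24.3 ± 12.6 in microglia, 19.2 ± 3.71 in oligodendrocytes and 17.9 ± 9.05 in OPCs, from few UMIs in astrocytes (40) and in endothelial cells and pericytes (7).

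Prkab1 was scarce in neurons and stood out in microglia, the macrophages of the brain. In microglia it measured 18.8 and 15.5 CPM in controls and 19.6 and 21.9 CPM in CrT-KO, from control counts of 9 and 10 and CrT-KO counts of 12 and 12 UMIs. All 4 microglial values lay above those of every neuronal population. The other non-neuronal values were 11.1 ± 9.26 CPM in endothelial cells and pericytes, 3.07 ± 0.678 in oligodendrocytes and 2.36 ± 0.635 in OPCs. Astrocytes held 0 UMIs of Prkab1 in all 4 libraries, which for a count of 0 allows up to 6.80 to 22.7 CPM, depending on the library. The excitatory values were 3.06 ± 1.08 CPM in L5 ET-like, 3.03 ± 0.915 in L5 IT-like, 2.88 ± 0.654 in L6 IT-like, 2.41 ± 0.452 in L4/5 IT-like, 2.36 ± 1.74 in L5/6 NP-like, 2.12 ± 0.0896 in L2/3 IT-like, 1.77 ± 0.441 in L6 CT-like and 1.62 ± 0.450 in L6b-like, and the inhibitory ones 3.31 ± 3.03 CPM in LAMP5-like, 2.64 ± 1.17 in VIP-like, 1.98 ± 0.807 in PV-like, 1.97 ± 0.744 in SST-like and 1.74 ± 0.520 in MSN-like. Per kilobase, Prkab2 made up 89.7% ± 1.78 of β subunit UMIs in excitatory neurons, 87.0% ± 1.84 in inhibitory neurons and 81.1% ± 5.32 in oligodendrocytes, but 45.4% ± 11.2 in microglia, where the range of 31.8% to 57.3% lay below that of the other 3 classes.

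The γ subunits bind AMP, ADP and ATP. Prkag1 had the flattest profile of the 10 genes, with a highest mean 1.90 times its lowest. It measured 41.2 ± 1.93 CPM in L5 ET-like, 38.4 ± 1.47 in L6 IT-like, 37.0 ± 3.81 in L6 CT-like, 36.0 ± 4.98 in L5/6 NP-like, 34.9 ± 6.78 in L5 IT-like, 31.6 ± 2.12 in L2/3 IT-like, 31.1 ± 1.53 in L4/5 IT-like and 29.8 ± 6.54 in L6b-like in excitatory nuclei. It measured 40.1 ± 6.68 CPM in PV-like, 38.5 ± 6.52 in SST-like, 37.4 ± 3.34 in MSN-like, 32.8 ± 8.52 in LAMP5-like and 30.3 ± 4.37 in VIP-like in inhibitory nuclei, and 56.6 ± 35.4 CPM in endothelial cells and pericytes, 49.9 ± 4.51 in microglia, 44.2 ± 14.3 in astrocytes, 37.6 ± 3.80 in oligodendrocytes and 37.5 ± 8.75 in OPCs elsewhere. None of the 17 steps between neighbours in its order was free of overlap.

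Prkag2 varied 19.0-fold between the means of its highest and lowest populations, L6 CT-like nuclei and oligodendrocytes. In L6 CT-like nuclei it measured 396 and 491 CPM in controls and 422 and 509 CPM in CrT-KO, and in oligodendrocytes 22.4 and 22.3 CPM in controls and 23.2 and 28.0 CPM in CrT-KO. The excitatory order was 455 ± 54.2 CPM in L6 CT-like, 445 ± 39.8 in L6 IT-like, 437 ± 63.4 in L5 IT-like, 320.2 ± 36.3 in L5/6 NP-like, 288 ± 35.1 in L5 ET-like, 262 ± 17.6 in L6b-like, 209.8 ± 23.5 in L2/3 IT-like and 134 ± 2.29 in L4/5 IT-like. L6 CT-like, L6 IT-like and L5 IT-like nuclei were thus high and L4/5 IT-like nuclei low. The ratio of L6 CT-like to L4/5 IT-like levels was 2.98 to 3.75 within a library. Inhibitory populations measured 149.7 ± 5.30 CPM in PV-like, 115 ± 11.1 in MSN-like, 89.8 ± 7.53 in SST-like, 59.9 ± 9.57 in LAMP5-like and 39.1 ± 5.24 in VIP-like, and none of these 5 populations overlapped its neighbour in this order. The remaining populations measured 156 ± 46.9 CPM in endothelial cells and pericytes, 89.9 ± 3.96 in microglia, 75.7 ± 7.33 in astrocytes, 75.6 ± 15.8 in OPCs and 24.0 ± 2.69 in oligodendrocytes.

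As a share of γ subunit UMIs per kb, Prkag2 made up 49.8% ± 6.84 in L5 IT-like nuclei, 49.1% ± 2.46 in L6 CT-like nuclei and 47.7% ± 3.19 in L6 IT-like nuclei. It fell to 25.3% ± 1.14 in L4/5 IT-like, 22.9% ± 2.20 in PV-like and 9.38% ± 1.99 in VIP-like nuclei. In oligodendrocytes it was 4.81% ± 0.572. By the mean of the libraries, Prkag1 gave more UMIs per kb than Prkag2 in all 18 populations, an order that rests on the division by length. Without that division, Prkag2 had 285 CPM against 33.9 for Prkag1 in excitatory neurons, and 24.0 against 37.6 in oligodendrocytes.

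Camkk2 was highest in the MSN-like nuclei, followed by L2/3 IT-like and L4/5 IT-like nuclei. MSN-like nuclei measured 218 and 186 CPM in controls and 176 and 165 CPM in CrT-KO, above every library of every other population. The excitatory order was 137 ± 2.24 CPM in L2/3 IT-like, 132 ± 16.9 in L4/5 IT-like, 125 ± 13 in L6 IT-like, 118 ± 15.8 in L5 IT-like, 96.0 ± 11 in L5 ET-like, 91.2 ± 8.60 in L6 CT-like, 83.5 ± 14.5 in L5/6 NP-like and 56.2 ± 12.5 in L6b-like. The interneurons were lower, with 80.3 ± 7.23 CPM in LAMP5-like, 54.2 ± 7.71 in PV-like, 48.6 ± 4.49 in SST-like and 40.1 ± 8.11 in VIP-like nuclei. Outside neurons the levels were 129.9 ± 21.5 CPM in microglia, 59.4 ± 23.3 in endothelial cells and pericytes, 39.9 ± 12.6 in astrocytes, 38.4 ± 8.74 in OPCs and 24.2 ± 5.61 in oligodendrocytes. Microglia thus held Camkk2 at a level that overlapped that of excitatory neurons as a class (105 to 122 CPM), while oligodendrocytes had the lowest mean.

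Stk11 was highest, by the mean, in microglia. Microglia measured 25.1 and 29.4 CPM in controls and 34.4 and 14.6 CPM in CrT-KO. The other non-neuronal levels were 13.6 ± 8.01 CPM in astrocytes, 12.1 ± 2.54 in OPCs, 9.47 ± 2.51 in oligodendrocytes and 8.73 ± 11 in endothelial cells and pericytes, the last from 2 UMIs. Inhibitory populations measured 12.2 ± 4.21 CPM in LAMP5-like, 5.61 ± 3.1 in SST-like, 5.45 ± 1.78 in MSN-like, 4.30 ± 1.27 in PV-like and 3.34 ± 2.39 in VIP-like. Excitatory populations measured 6.29 ± 1.49 CPM in L6 IT-like, 6.23 ± 1.45 in L4/5 IT-like, 5.71 ± 1.42 in L6 CT-like, 5.34 ± 1.80 in L5 ET-like, 4.85 ± 0.204 in L5 IT-like, 4.82 ± 0.839 in L6b-like, 4.63 ± 1.32 in L2/3 IT-like and 3.87 ± 1.17 in L5/6 NP-like. No step in the order was free of overlap, and the 3 highest populations overlapped each other.

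Ak4, the mitochondrial adenylate kinase, was higher in excitatory than in inhibitory neurons. In excitatory nuclei it measured 24.3 ± 4.79 CPM in L5 IT-like, 23.9 ± 5.33 in L6 IT-like, 18.9 ± 1.5 in L5/6 NP-like, 15.0 ± 3.73 in L4/5 IT-like, 13.2 ± 2.25 in L2/3 IT-like, 12.7 ± 1.18 in L6b-like, 11.8 ± 3.83 in L6 CT-like and 9.02 ± 3.12 in L5 ET-like. In the inhibitory populations it measured 7.46 ± 2.83 CPM in LAMP5-like, 3.74 ± 1.76 in VIP-like, 1.62 ± 0.809 in SST-like, 1.17 ± 0.593 in MSN-like and 0.329 ± 0.423 in PV-like. The total in PV-like nuclei was 3 UMIs, with 0 in both CrT-KO libraries, which allows up to 1.46 CPM in either. The ratio of excitatory to inhibitory levels was 6.28 to 10.5 within a library. Astrocytes measured 28.8 ± 6.34 CPM from 33 UMIs, overlapping L5 IT-like and L6 IT-like nuclei, and the other populations measured 6.92 ± 5.00 in OPCs, 3.84 ± 1.52 in oligodendrocytes, 2.69 ± 1.19 in microglia and 2.45 ± 4.90 in endothelial cells and pericytes.

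Ak5 had the highest CPM of the 10 genes over all nuclei, and its mean varied widely between the excitatory populations. Only 5 of the steps between neighbours in its order of 18 populations were free of overlap. L5/6 NP-like nuclei measured 594 and 640.2 CPM in controls and 645 and 632 CPM in CrT-KO. L6 IT-like nuclei measured 529 and 568 CPM in controls and 608 and 671 CPM in CrT-KO, and the ranges of these highest populations overlapped. The remaining excitatory populations measured 399 ± 20 CPM in L6b-like, 394 ± 19.2 in L2/3 IT-like, 362 ± 22.5 in L4/5 IT-like, 339 ± 67.4 in L5 IT-like, 237 ± 24.7 in L6 CT-like and 141 ± 22.5 in L5 ET-like nuclei. L5 ET-like nuclei, which send axons below the cortex, had the lowest excitatory level, and the ratio of L6 IT-like to L5 ET-like levels was 3.98 to 4.66 within a library. Inhibitory populations measured 289.9 ± 35.1 CPM in LAMP5-like, 152 ± 12.5 in SST-like, 135 ± 20.1 in MSN-like, 108 ± 24.8 in VIP-like and 100.4 ± 11.1 in PV-like. LAMP5-like nuclei overlapped L4/5 IT-like and L5 IT-like nuclei and lay above L6 CT-like nuclei without overlap. The non-neuronal levels were 117 ± 89.8 CPM in endothelial cells and pericytes, 114 ± 27.3 in OPCs, 49.8 ± 17.8 in microglia, 43.0 ± 3.92 in oligodendrocytes and 28.1 ± 6.43 in astrocytes.

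Within L5/6 NP-like nuclei, Ak5 was itself divided, and the high mean of this population came from only part of its nuclei. A sub-cluster led by Pde11a, Smoc1 and Dcn (632 nuclei) measured 793 and 824 CPM in controls and 853 and 894 CPM in CrT-KO. A second sub-cluster, led by Nxph1, Kcnip1 and Hmga2 (505 nuclei), measured 201 and 219 CPM in controls and 235 and 285 CPM in CrT-KO. In L2/3 IT-like nuclei the sub-clusters led by Tmc1, Otof and Ndst4 measured 263 to 295, 407 to 465 and 520 to 575 CPM, 3 ranges without overlap. These sub-clusters were drawn from the same nuclei in which Ak5 was measured, so the differences are a description.

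Genes with the profile most like a member were sought for the 3 members with the widest range of log2(CPM + 1), over the 18 populations and among 11507 genes that reached a mean of 10 CPM in at least 1 of them. For Ak4 the nearest were Dkk3 (Pearson r 0.84), Bmpr1b (0.83) and Grhl1 (0.83). For Ak5 they were Rnf165 (0.93), Erc2 (0.91), which encodes a scaffold protein of presynaptic active zones, and Sh3gl2 (0.91), which encodes the endocytic protein endophilin A1. For Prkab1 they were Prcp (0.97), Zfp65 (0.92) and Sh3gl1 (0.92). The 18 points share 4 libraries and differ in depth, the counts of Ak4 and Prkab1 were sparse, and the r values describe these populations only.

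The second question of the design is whether the levels differ between control and CrT-KO cortex. Slc6a8 itself was counted 349 and 336 times in the control libraries and 101 and 79 times in CrT-KO over all nuclei, with a log2 fold change of -1.96 (± 0.15 SE, adjusted p = 0.00975, edgeR quasi-likelihood test on summed UMIs), in the direction of the labels. Log2 fold changes below are CrT-KO over control from the same test, which scaled libraries by TMM factors that the CPM values do not include, with p-values adjusted by Benjamini-Hochberg over all genes tested in a population, and a gene is called at an adjusted p under 0.1. With 2 libraries per genotype, p-values rest on the spread between 2 animals on each side, shared across genes. Where both CrT-KO libraries lie on the same side of both controls, the share of all genes that do so was counted for sub-clusters only.

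Of 171 combinations of a member and a population that passed the filter on low counts, of 210 possible, 1 was called. It was Ak5 in L5 IT-like nuclei, where 0.304% of 9225 genes were called. All 10 members were tested over all nuclei (0.02% of genes called), in excitatory neurons (0.215%) and in inhibitory neurons (0.0645%), and 8 in oligodendrocytes (0.514%), and none was called there. None was called in the other glial and vascular populations either, with 5 tested in astrocytes (0.0202% of genes called), 6 in OPCs (0.034%), 9 in microglia (0.0411%) and 1 in endothelial cells and pericytes (0.0616%). Among inhibitory populations none was called of 8 in PV-like (0.0531%), 8 in SST-like (0.067%), 7 in VIP-like (0%), 6 in LAMP5-like (0.0164%) and 8 in MSN-like nuclei (0.05%). Among the remaining excitatory populations none was called of 10 in L2/3 IT-like (0.47%), 10 in L4/5 IT-like (0.78%), 9 in L5 ET-like (0.217%), 9 in L5/6 NP-like (0.0631%), 10 in L6 IT-like (0.0698%), 10 in L6 CT-like (0.0935%) and 8 in L6b-like nuclei (0%). Of the 171 combinations, 12 (7.02%) had an unadjusted p under 0.05, 6 of them for Ak5, beside 6.64% of all genes tested over the same populations (4.51% to 9.12% in single populations), so the members' share was near that of all genes.

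Over all nuclei, Ak5 measured 289.7 and 299 CPM in controls and 309 and 327 CPM in CrT-KO. Both CrT-KO values lay above both controls, with a log2 fold change of 0.16 (± 0.063 SE, unadjusted p = 0.0338, edgeR adjusted p = 0.712). Camkk2 measured 109 and 109 CPM in controls and 103 and 97.5 CPM in CrT-KO, lower in both CrT-KO libraries. Prkaa2 measured 83.9 and 82.9 CPM in controls and 84.5 and 82.9 CPM in CrT-KO, and its values overlapped. The log2 fold changes over all nuclei, each with its 95% confidence interval, were -0.079 (-0.21 to 0.056) for Camkk2, 0.053 (-0.084 to 0.19) for Prkaa2, 0.017 (-0.23 to 0.26) for Prkaa1, -0.0016 (-0.17 to 0.17) for Prkag1 and 0.038 (-0.16 to 0.23) for Prkag2. They were -0.061 (-0.27 to 0.15) for Prkab2, 0.16 (-0.23 to 0.55) for Prkab1, 0.013 (-0.37 to 0.39) for Stk11 and -0.16 (-0.44 to 0.12) for Ak4. The median of the 10 was 0.015, beside -0.0065 over all 15019 genes tested.

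In excitatory neurons, Ak5 measured 354 and 374 CPM in controls and 374 and 404 CPM in CrT-KO. The second control and the first CrT-KO library were nearly equal, so the genotypes hardly separated, and the change was 0.15 ± 0.074 (SE) on the log2 scale, with an adjusted p = 0.593 by edgeR. Without the second CrT-KO library the Ak5 change was 0.070 in excitatory neurons and 0.10 over all nuclei. The catalytic and γ subunits were near 0, with log2 fold changes and 95% intervals of 0.0048 (-0.24 to 0.25) for Prkaa1, 0.056 (-0.093 to 0.20) for Prkaa2, -0.018 (-0.21 to 0.17) for Prkag1 and 0.016 (-0.19 to 0.22) for Prkag2. The others were 0.21 (-0.20 to 0.63) for Prkab1, -0.16 (-0.38 to 0.056) for Prkab2, 0.038 (-0.34 to 0.41) for Stk11, -0.11 (-0.26 to 0.037) for Camkk2 and -0.18 (-0.46 to 0.094) for Ak4. Leaving out 1 library brought the change of Prkab2 to -0.037 (without the second control) and that of Ak4 to -0.019 (without the second CrT-KO library). The median was 0.011, beside -0.0045 over 13957 genes.

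In inhibitory neurons, Ak5 measured 133 and 142 CPM in controls and 147 and 127 CPM in CrT-KO, with overlap between genotypes and a log2 fold change of 0.0091 (-0.18 to 0.20). Camkk2 measured 108 and 106 CPM in controls and 97.6 and 91.6 CPM in CrT-KO, both CrT-KO libraries below both controls, with a log2 fold change of -0.16 (-0.33 to 0.021). The class pools interneurons with the MSN-like nuclei, which are 2540 of its 6803. Within it, the Camkk2 change was -0.23 in MSN-like and -0.25 in PV-like nuclei. It was 0.035 in SST-like, 0.10 in LAMP5-like and 0.28 in VIP-like nuclei. Over the whole class, the AMPK subunits gave 0.0039 (-0.31 to 0.32) for Prkaa1, 0.037 (-0.15 to 0.23) for Prkaa2, 0.27 (-0.47 to 1.01) for Prkab1, 0.21 (-0.080 to 0.50) for Prkab2, 0.016 (-0.23 to 0.26) for Prkag1 and -0.041 (-0.23 to 0.14) for Prkag2. Stk11 gave 0.23 (-0.30 to 0.76) and Ak4 -0.48 (-1.28 to 0.32), the latter from control counts of 16 and 26 and CrT-KO counts of 17 and 13 UMIs and at -0.16 without the second control library. The median was 0.013, beside -0.0060 over 12403 genes.

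In oligodendrocytes, the myelin-forming glia, Prkab1 and Ak4 had too few UMIs to be tested. Prkab2 measured 16.5 and 15.7 CPM in controls and 23.2 and 21.6 CPM in CrT-KO, with both CrT-KO libraries above both controls and a log2 fold change of 0.46 (-0.11 to 1.03). The other log2 fold changes were -0.031 (-0.52 to 0.46) for Prkaa1, 0.0045 (-0.36 to 0.37) for Prkaa2, -0.12 (-0.55 to 0.30) for Prkag1, 0.18 (-0.34 to 0.69) for Prkag2, 0.029 (-0.77 to 0.83) for Stk11, 0.19 (-0.35 to 0.72) for Camkk2 and 0.18 (-0.22 to 0.57) for Ak5. These intervals were wider than those in excitatory neurons, and that for Ak5 held both 0 and the 0.15 fitted in excitatory neurons. The median was 0.10, beside -0.0031 over 8945 genes.

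**Figure D3:**
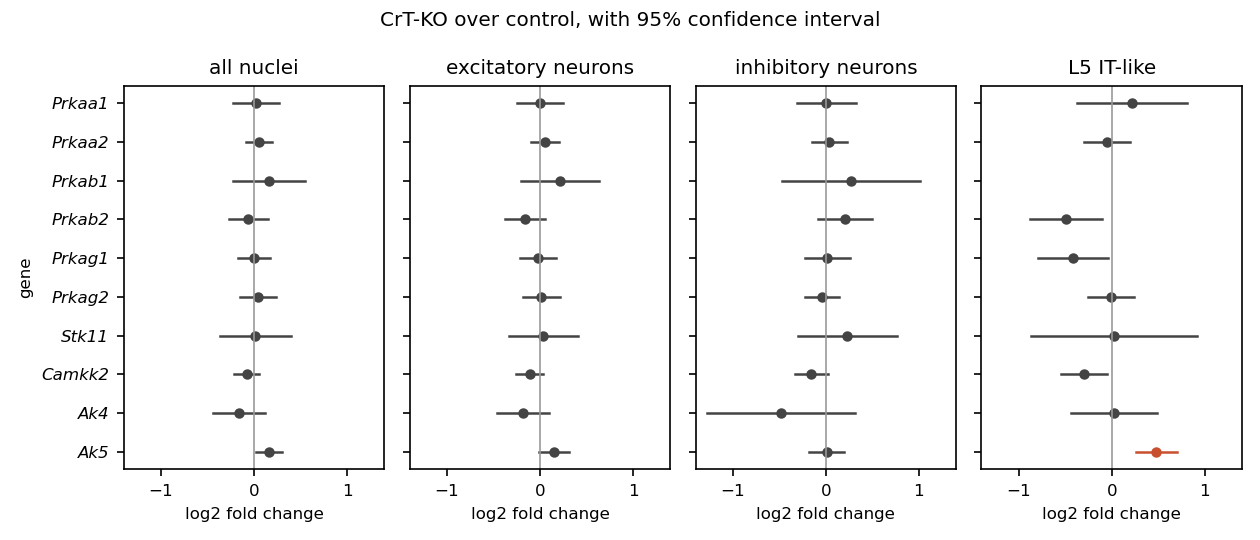
Log2 fold change, CrT-KO over control (x axis), of each member tested (y axis) over all nuclei, in excitatory neurons, in inhibitory neurons and in L5 IT-like nuclei (panels), with lines for the 95% confidence interval. The Ak5 point in L5 IT-like nuclei, in red, is the only one called, and 4 points of that panel have intervals that leave out 0.

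Ak5 in L5 IT-like nuclei was the called result. It measured 282 and 290.2 CPM in controls and 357 and 427 CPM in CrT-KO, from control counts of 668 and 689 and CrT-KO counts of 1005 and 992 UMIs. Both CrT-KO values lay above both controls, and the CrT-KO libraries differed from each other by more than the controls did. On the log2 scale the change was 0.48 ± 0.11 (SE, 95% interval 0.26 to 0.70, adjusted p = 0.0591 by edgeR). The call was lost without the second CrT-KO library (log2 fold change 0.33, edgeR adjusted p = 0.507), with doublets kept (0.45, adjusted p = 0.108), with a finer clustering of nuclei (0.38, adjusted p = 0.466) and at a threshold of 0.05. The sum of the 18 inhibitory neuron markers in these nuclei was 2082 and 2381 CPM in controls and 1702 and 2203 CPM in CrT-KO, and that of the 15 excitatory neuron markers was 5833 to 5856 and 5746 to 5840 CPM.

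The L5 IT-like nuclei consisted of a large sub-cluster led by Il1rapl2, Rxfp2 and Deptor (876 nuclei) and a small one led by Scml2, Hsd11b1 and Teddm3 (96 nuclei). In the large one Ak5 measured 289.9 and 297 CPM in controls and 375 and 445 CPM in CrT-KO. In the small one it measured 185 and 233 CPM in controls and 204 and 184 CPM in CrT-KO, with overlapping genotypes and a difference of the mean log2 values of -0.10. The large sub-cluster held 217 and 203 of 234 and 229 nuclei in controls and 228 and 228 of 261 and 248 in CrT-KO.

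**Figure D4:**
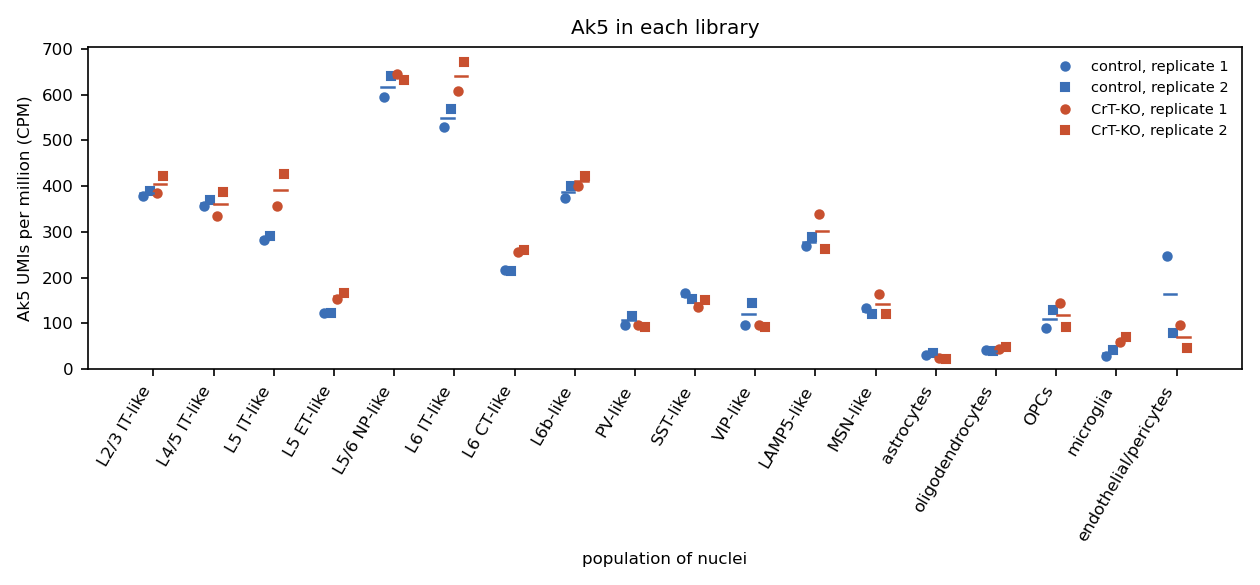
Ak5 level in CPM (y axis) in 18 populations (x axis), 1 point per library, with control in blue, CrT-KO in red and a bar at the mean of each genotype. The L5 IT-like points run from 282 and 290 in controls to 357 and 427 in CrT-KO, and the L5/6 NP-like and L6 IT-like columns are the highest. The L5/6 NP-like column pools a sub-cluster at 793 to 894 CPM with another at 201 to 285 CPM.

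The fitted Ak5 change was above 0 in all 8 excitatory populations, which share their animals and so are not independent. The share of all genes with the same sign in all 8 was not counted. In L5 ET-like nuclei Ak5 measured 123 and 122 CPM in controls and 153 and 167 CPM in CrT-KO (0.43 ± 0.12 SE on the log2 scale, adjusted p = 0.273 by edgeR). In L6 CT-like nuclei it measured 217 and 215 CPM in controls and 256 and 261 CPM in CrT-KO (0.29 ± 0.085 SE on the log2 scale, adjusted p = 0.365 by edgeR). In L6 IT-like nuclei it measured 529 and 568 CPM in controls and 608 and 671 CPM in CrT-KO (0.26 ± 0.091 SE on the log2 scale, adjusted p = 0.575 by edgeR). In each of these 3 populations both CrT-KO libraries lay above both controls, with an unadjusted p under 0.05 and no call. Of all genes tested, 7.32% in L5 ET-like, 6.95% in L6 CT-like and 6.85% in L6 IT-like nuclei had an unadjusted p under 0.05. In L2/3 IT-like and L4/5 IT-like nuclei the values were 379 and 389.7 CPM in controls and 386 and 422 CPM in CrT-KO, and 357 and 369 CPM in controls and 334 and 387 CPM in CrT-KO, with overlap in both.

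**Figure D5:**
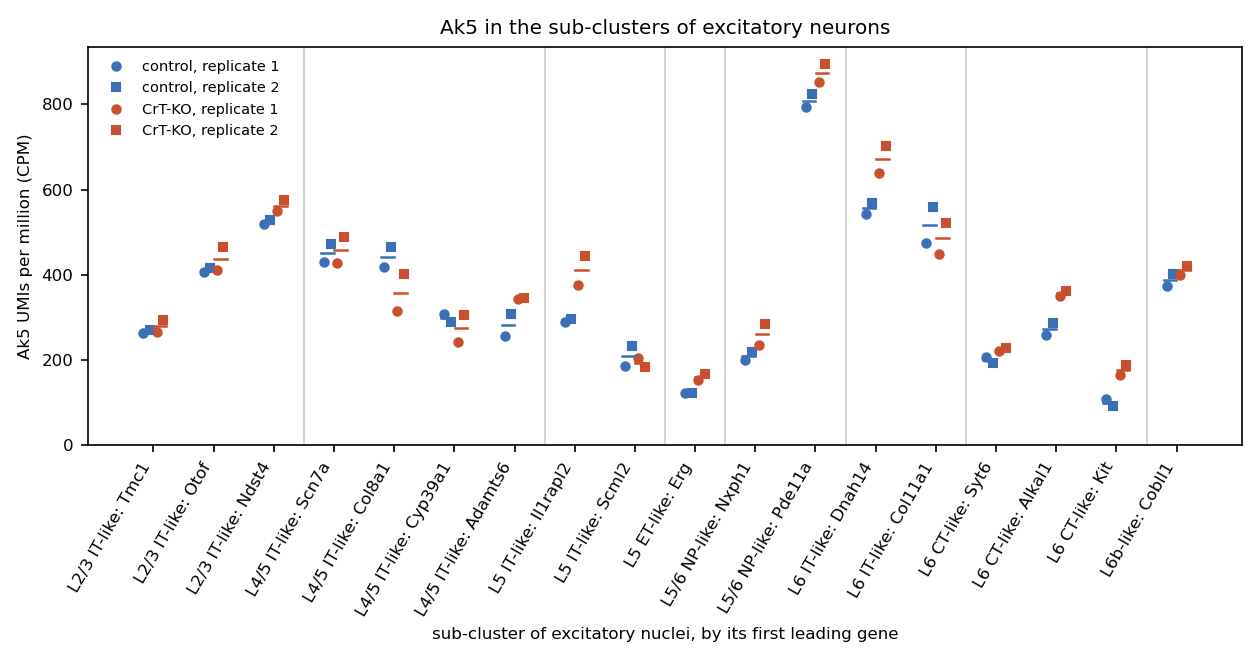
Ak5 level in CPM (y axis) in the 18 sub-clusters of layer-named excitatory nuclei (x axis, named by population and first leading gene), 1 point per library, with control in blue, CrT-KO in red and a bar at the mean of each genotype. The L4/5 IT-like sub-cluster led by Col8a1 runs lower in CrT-KO (316 and 401) than in controls (418 and 464), while the L6 CT-like sub-cluster led by Alkal1 runs higher (350 and 363 against 260 and 287), and of the 18 sub-clusters 10 have both CrT-KO points above both controls and 1 has both below.

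The L6 CT-like sub-clusters differed in their Ak5 level. The one led by Kit measured 109 and 91.1 CPM in controls and 165 and 188 CPM in CrT-KO, the one led by Alkal1 259.6 and 287 CPM in controls and 349.9 and 363 CPM in CrT-KO, and the one led by Syt6 207 and 193 CPM in controls and 221 and 227 CPM in CrT-KO. Of the 4 L4/5 IT-like sub-clusters, the one led by Col8a1 measured 418 and 464 CPM in controls and 316 and 401 CPM in CrT-KO, and the one led by Adamts6 257 and 309 CPM in controls and 344 and 346 CPM in CrT-KO, while in the other two the genotypes overlapped. Over all 18 sub-clusters, which share their animals, both CrT-KO libraries lay above both controls in 10 and below in 1. Within any single sub-cluster, 13.3% to 16.9% of all genes with at least 15 UMIs lay above and 18.1% to 24.8% below in the same way. The share of all genes that lay above in as many sub-clusters as Ak5 was not counted. These sub-cluster values carry no test.

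In L5 IT-like nuclei 3 further members had an unadjusted p under 0.05, all with lower values in CrT-KO. Camkk2 measured 129 and 134 CPM in controls and 110.2 and 100.2 CPM in CrT-KO (-0.29 ± 0.12 SE on the log2 scale, adjusted p = 0.545 by edgeR). Prkab2 measured 36.3 and 46.3 CPM in controls and 31.6 and 25.8 CPM in CrT-KO (-0.49 ± 0.19 SE on the log2 scale, adjusted p = 0.520 by edgeR). Prkag1 measured 40.6 and 40.0 CPM in controls and 32.7 and 26.2 CPM in CrT-KO (-0.42 ± 0.18 SE on the log2 scale, adjusted p = 0.587 by edgeR). None of the 3 passed the adjustment over 9225 genes, of which 7.60% had an unadjusted p under 0.05.

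Camkk2 had no common direction over the populations. Its fitted change was below 0 in 9 and above 0 in 8 of the 17 finest populations where it was tested, and in L2/3 IT-like nuclei it was 0.062, with 138 and 134 CPM in controls and 139 and 136 CPM in CrT-KO. Outside L5 IT-like nuclei 2 populations had an unadjusted p under 0.05. In L4/5 IT-like nuclei it measured 147 and 145 CPM in controls and 119 and 115 CPM in CrT-KO (-0.28 ± 0.091 SE on the log2 scale, adjusted p = 0.286 by edgeR). In MSN-like nuclei it measured 218 and 186 CPM in controls and 176 and 165 CPM in CrT-KO (-0.23 ± 0.11 SE on the log2 scale, adjusted p = 0.810 by edgeR). Neither was called.

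In microglia, Ak5 and Prkaa2 were higher in both CrT-KO libraries without a call, and these 2 members had an unadjusted p under 0.05. The count of such members was 0 with DESeq2 and 0 with only nuclei of at least 1000 UMIs. It was 1 with doublets kept, and 2 with no filter on low counts, with the replicate block, at Leiden resolution 1.5 and with members among the clustering genes. Ak5 measured 29.3 and 41.8 CPM in controls and 58.9 and 69.3 CPM in CrT-KO, from control counts of 14 and 27 and CrT-KO counts of 36 and 38 UMIs (0.81 ± 0.30 SE on the log2 scale, adjusted p = 0.849 by edgeR). Prkaa2 measured 16.7 and 20.1 CPM in controls and 31.1 and 36.5 CPM in CrT-KO, from control counts of 8 and 13 and CrT-KO counts of 19 and 20 UMIs (0.84 ± 0.39 SE on the log2 scale, adjusted p = 0.875 by edgeR). Both genes were higher in excitatory neurons, and neuronal markers were present in these nuclei. Of the 15 excitatory markers, 14 to 15 were counted in each library, with sums of 1066 to 1121 CPM in controls and 1053 to 1250 CPM in CrT-KO. Of the 18 inhibitory markers, 15 to 16 were counted in the control and 17 to 18 in the CrT-KO libraries, with sums of 1318 to 1873 CPM in controls and 1484 to 1503 CPM in CrT-KO, and their part in the result was not tested.

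Whether the genotype effect itself differed between populations was tested as an interaction in edgeR, with the library as a block. No member was called between excitatory and inhibitory neurons (0.0997% of genes called), between excitatory neurons and oligodendrocytes (0.328%) or between excitatory neurons and microglia (0.0571%), and 1, 1 and 3 of the 10 members had an unadjusted p under 0.05, beside 6.57%, 6.26% and 5.06% of all genes. Prkab2, the β2 scaffold, gave the smallest p between the neuronal classes. It measured 30.2 and 34.6 CPM in controls and 27.2 and 28.9 CPM in CrT-KO in excitatory neurons, and 18.2 and 19.0 CPM in controls and 20.6 and 22.2 CPM in CrT-KO in inhibitory neurons. The log2 fold change was thus -0.16 in the first and 0.21 in the second, with a difference of 0.38, where the excitatory value was -0.037 without the second control library (SE of the difference 0.11, unadjusted p = 0.0041, edgeR adjusted p = 0.480). For Ak5 the difference, inhibitory minus excitatory, was -0.12 (SE 0.089, edgeR adjusted p = 0.886).

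Around the 10 members, 78 genes in 6 lists were followed. The lists held 12 further upstream kinases and partners of AMPK, 13 AMPK-related kinases, 22 substrates and downstream genes, 10 other nucleotide kinases, 14 genes of AMP and adenosine handling, and 7 creatine genes. The creatine genes gave a median of -0.20 over all nuclei, from 6 of 7 tested, Slc6a8 included. Slc6a8 was the only one of the 78 called in any of the 21 populations tested, and it was called with lower values in CrT-KO in 7 of them. Over all nuclei, 11 of 12 upstream genes were tested with a median log2 fold change of 0.033, 13 of 13 related kinases with 0.036, 22 of 22 substrates with 0.059, 10 of 10 nucleotide kinases with 0.027, and 12 of 14 AMP and adenosine genes with -0.084, beside -0.0065 over all genes. In excitatory neurons the medians in the same order were 0.083, 0.068, 0.024, 0.037 and -0.050, beside -0.0045, and these 5 lists held no call in either direction.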

How the data were processed

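Nuclei of the cerebral cortex of 2 control and 2 CrT-KO mice were profiled with droplet 3′ RNA sequencing. The authors deposited raw UMI counts per gene and nucleus for each library, made with Cell Ranger 3.1.0 on a GRCm38 reference built for pre-mRNA, where introns count as well as exons, with barcodes already filtered. FastQC and Seurat 3.1.4 are also named in the submitters' processing notes. Fold changes, tests and cell names were computed here. No column of a table was left unused (0).

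Doublets were marked per library with Scrublet (scanpy 1.11.5). Nuclei were scaled, log transformed and clustered by Leiden (igraph 0.11.9) on variable genes without the members and the pathway genes, and named from marker lists with thresholds set after the matrices were seen. The sums over nuclei of a population in each library were tested with the edgeR 4.0.16 quasi-likelihood test (TMM factors, filterByExpr, Benjamini-Hochberg over all genes tested, threshold 0.1). Levels are UMIs per 1000000 UMIs of the population without TMM factors. A count of 0 was given an upper limit of 3 UMIs, which covers counting error only. Gene bodies came from GENCODE vM21, to which 21816 of 21933 gene identifiers matched. On counts simulated for excitatory neurons (13973 genes) with 1 common dispersion for all genes, the test recovered 71.7% of 1.5-fold and 90.0% of 2-fold changes, with 19 false calls. Real genes differ in their dispersion, so these rates do not tell how often a change of a single member would be called.

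The libraries of a group differed beyond sampling noise. The files held 51507483 to 65240843 UMIs per library. The members, lists and tests were chosen with earlier results of these data known. All 10 members were described in every population, with genotype values in all nuclei, excitatory neurons, inhibitory neurons and oligodendrocytes. Elsewhere they were given at an unadjusted p under 0.05 or a call, and for Ak5 and Camkk2 in some further populations. The descriptions of levels also gave values by genotype for some populations, whether or not a gene met this limit. Other changes in those populations were left out. Genes of the pathway lists were named only if called. Alternatives were the block by replicate number, DESeq2 1.42.0, no filter on low counts, a threshold of 0.05, leaving out each library, doublets kept, nuclei with at least 1000 UMIs, Leiden resolution 1.5, and the members among the clustering genes. Values within Ak5 sub-clusters were added after the data were seen.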

Additional observations from a re-analysis of the deposited data

How the results depend on the processing

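The count of members called changed as follows. In L5 IT-like nuclei it fell from 1 to 0 at a threshold of 0.05, with doublets kept and at Leiden resolution 1.5, and ranged from 0 to 1 when each library was left out, being 0 without the second CrT-KO library. In L4/5 IT-like, L5 ET-like and L6 CT-like nuclei it rose from 0 to 1 with the replicate block, for Camkk2 (-0.28, adjusted p = 0.0524 by edgeR), Ak5 (0.42, adjusted p = 0.0359) and Ak5 (0.29, adjusted p = 0.0246). Calls over all genes rose with the block as well. In L4/5 IT-like nuclei they rose from 84 to 383 of 10771 genes. In L5 ET-like nuclei they rose from 20 to 108 of 9225, and in L6 CT-like nuclei from 10 to 273 of 10695. The replicate numbers do not pair the libraries by the labels, and same-numbered libraries deviated together with correlations of 0.0979 to 0.19 over genes. The genes called in L5 IT-like nuclei were 28 in the report and 60 with no filter on low counts, 44 with the replicate block, 12 with DESeq2, 12 at Leiden resolution 1.5 and 43 to 69 without 1 library. Of 324 single-gene values under alternatives other than leaving out a library, 301 kept direction and side of the threshold and 18 changed sign. These log2 fold changes were, with DESeq2 0.0039 for Prkag1 in all nuclei and -0.00054 for Prkaa2 in oligodendrocytes, with only nuclei of at least 1000 UMIs 0.00057 for Prkag1 in all nuclei, -0.0045 for Stk11 in all nuclei and -0.12 for Stk11 in oligodendrocytes, with doublets kept 0.014 for Prkag1 in all nuclei, -0.017 for Prkaa1 in excitatory neurons, -0.0073 for Prkaa1 in inhibitory neurons, 0.0032 for Prkag2 in inhibitory neurons, 0.027 for Prkaa1 in oligodendrocytes, 0.0047 for Prkag1 in oligodendrocytes, -0.17 for Prkag2 in oligodendrocytes and -0.15 for Camkk2 in oligodendrocytes, with the replicate block -0.0017 for Stk11 in all nuclei, with member genes among the clustering genes -0.00075 for Prkaa1 in excitatory neurons, with no filter on low counts -0.0069 for Prkaa2 in oligodendrocytes, and with Leiden resolution 1.5 -0.011 for Prkaa2 in oligodendrocytes. Ak5 was -0.10 in the L5 IT-like sub-cluster led by Scml2, chosen after the data were seen. Leaving out 1 library turned the sign of 19 results, with these ranges. In all nuclei they were -0.081 to 0.12 for Prkaa1, -0.15 to 0.041 for Prkab2, -0.042 to 0.041 for Prkag1, -0.089 to 0.16 for Prkag2 and -0.23 to 0.21 for Stk11. In excitatory neurons they were -0.095 to 0.10 for Prkaa1, -0.10 to 0.065 for Prkag1, -0.13 to 0.15 for Prkag2 and -0.21 to 0.23 for Stk11. In inhibitory neurons they were -0.070 to 0.10 for Ak5, -0.15 to 0.18 for Prkaa1, -0.086 to 0.13 for Prkag1, -0.12 to 0.049 for Prkag2 and -0.024 to 0.52 for Stk11. In oligodendrocytes they were -0.14 to 0.46 for Camkk2, -0.32 to 0.20 for Prkaa1, -0.089 to 0.089 for Prkaa2, -0.33 to 0.048 for Prkag1 and -0.41 to 0.38 for Stk11. The cause of these changes was not tested. Of the 10 members, 9 kept their highest population with TMM factors and 8 with doublets kept. With TMM factors the highest population of Prkab2 changed from L6 IT-like nuclei to endothelial cells and pericytes. With doublets kept that of Prkag2 changed from L6 CT-like to L5 IT-like nuclei, and that of Ak4 from astrocytes to L5 IT-like nuclei. Recovery of known changes was simulated in excitatory neurons and not in the other populations.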
